A study of Mus musculus with 4 samples.

Results

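Interneurons of the mouse prefrontal cortex (PFC) that carried Lhx6 RNA but little Sst RNA were followed from postnatal day 1 (P1) to the adult, as the cell group in which Pvalb, the gene of the calcium-binding protein parvalbumin, comes on. The cells were chosen by their counts of unique molecular identifiers (UMIs, the counted RNA molecules). A member had at least 2 UMIs of Gad1 and Gad2 together per 10,000 UMIs, at least 1 UMI of Lhx6, under 5 UMIs of Sst per 10,000 and under 1 UMI of Adarb2 per 10,000. Of 59918 cells that passed the cell filter, 3253 met the rule. The P1 library gave 867 of them, P4 gave 1255, P10 gave 735 and the adult library 396. The levels of Lhx6, Gad1, Gad2, Sst and Adarb2 in these cells follow from the rule and are given only as a description.

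Cells came from the dissociated PFC of C57BL/6J mice, all female by the study's methods, at P1, P4, P10 and P84, the last called adult. The study used 2 mice at each age, and each age had 1 BD Rhapsody library. That this library held cells of both mice was assumed, and no record of which cell came from which mouse was used here. Slices were held in artificial cerebrospinal fluid with actinomycin D, an inhibitor of transcription, and the tissue was then digested with protease XXIII and papain. With 1 library per age there are no replicates, so no difference between ages was tested, and the intervals printed are exact 95% intervals that cover counting error only. A count of genes past 2-fold describes these libraries. Levels are given as CPM, a gene's UMIs summed over the cells and divided by their UMIs outside the mitochondrial and ribosomal protein genes, scaled to 1000000. Other cells of the same libraries served for comparison. Sst-high cells met the rule except for having at least 5 Sst UMIs per 10,000. Adarb2 cells met the Gad limit with no Lhx6 UMI and at least 1 Adarb2 UMI per 10,000. Excitatory cells had no Gad UMI and at least 3 UMIs of Neurod2, Neurod6 and Slc17a7 together per 10,000, and microglia had no Gad UMI and at least 10 UMIs of the C1q genes per 10,000.

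Lhx6 is a transcription factor of interneurons born in the medial ganglionic eminence, which become mainly the parvalbumin and the somatostatin interneurons of the cortex. Parvalbumin interneurons contact the somata and the axon initial segments of pyramidal cells and fire long trains of brief spikes at high frequency. That firing rests on fast potassium channels of the Kv3 family, on axonal sodium and Kv1 channels, on a fast release machinery with synaptotagmin 2 and on a high energy supply, and many adult cells are wrapped in a perineuronal net. Parvalbumin itself appears late, after the cells have migrated and begun to form synapses.

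The median depth of members was 19147 UMIs in the P1 library, 8287 in P4, 23918 in P10 and 19589 in the adult library. The P1 library stood apart from the others. Its file header names a later version of the vendor's pipeline than the other headers, gives the bead version as Enhanced, states that intronic reads were not excluded, and calls the library P0. Y-linked genes reached 141 CPM in P1 members against 0.0610 to 0.175 CPM at the other ages, although the study's methods describe females only. In ratios against P1, age and these differences cannot be told apart, whereas the ratios of P10 over P4 and of adult over P10 do not use that library. Cell barcodes shared by 2 libraries numbered 10 to 323 per pair among all cells and 0 to 2 among members. Scrublet marked 10.5% to 14.6% of the members of each age as possible doublets, and they were kept in the values below.

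The genome sequence just before the start sites of Pvalb and Syt2 is shown because both genes were among the 3 with the highest ratio of adult members over adult Sst-high cells. Both sequences are 250 bases long and come from RefSeq on GRCm38.p6. The Pvalb gene lies on the minus strand at chr15:78191114-78206400 and its window at chr15:78206401-78206650. The Syt2 gene lies on the plus strand at chr1:134646677-134762593 and its window at chr1:134646362-134646611. Gene positions are from GENCODE and each window ends at the start site of RefSeq, which for Syt2 lies upstream of the GENCODE start.
Pvalb: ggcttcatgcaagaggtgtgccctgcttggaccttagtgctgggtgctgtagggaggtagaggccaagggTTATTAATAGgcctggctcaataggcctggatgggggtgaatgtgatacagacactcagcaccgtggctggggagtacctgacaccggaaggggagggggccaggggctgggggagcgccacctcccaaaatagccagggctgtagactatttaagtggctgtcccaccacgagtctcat
Syt2: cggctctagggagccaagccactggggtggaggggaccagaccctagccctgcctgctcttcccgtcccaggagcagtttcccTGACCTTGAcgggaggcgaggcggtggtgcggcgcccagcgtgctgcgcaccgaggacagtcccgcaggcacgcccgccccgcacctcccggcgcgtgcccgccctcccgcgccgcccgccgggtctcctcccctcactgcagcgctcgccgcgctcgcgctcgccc
Capitals mark a match to the MEF2 motif in Pvalb, whose first base is 180 bases before the RefSeq start site, and a match to TCAAGGTCA, the half-site of estrogen-related receptors, in Syt2, where it lies on the opposite strand from 167 bases before the start site. Both strands were searched in 32851 windows of this length. The MEF2 motif was in 2.92% of them and TCAAGGTCA in 0.387%. TATAAA was searched too, and was in 12.4% of them and in neither sequence shown. RefSeq gave windows for 30 of the 46 genes in the lists of channels, release, energy supply and perineuronal nets, and among these TCAAGGTCA was also in Hcn2 and the MEF2 motif also in Esrrg. A second window of Pvalb and of Syt2, at another start site, held none of these motifs. Binding at the marked sites, and any effect on either gene, was not tested. In the members, Esrrg, which encodes an estrogen-related receptor, was at 18.4, 18.0, 60.4 and 159 CPM from P1 to the adult, and Mef2c, a MEF2 factor picked for this motif after its values were seen, was at 2467, 3036, 2474 and 1461 CPM.

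The name Pvalb lineage was checked against the cells on both sides of the Sst limit, and in the pups it held only in part. At P1, 55 members with 3 to 5 Sst UMIs per 10,000 had Elfn1 at 440.2 CPM and Grin3a at 866 CPM, both markers of somatostatin cells. The 49 neighbours just outside, with 5 to 7, had 513 and 1035 CPM, while 614 members with no Sst UMI had 131 and 134 CPM. At P4 the values of Elfn1 were 304 CPM just inside, 431 CPM just outside and 74.7 CPM in members without Sst, and at P10 they were 106, 111 and 42.3 CPM. In the adult, Pvalb was at 551 CPM in 165 members without Sst, at 124 CPM in 13 members just inside the limit, at 23.2 CPM in 8 cells just outside and at 8.85 CPM in 432 cells with over 20 Sst UMIs per 10,000. These values leave out the members with some Sst but under 3 UMIs per 10,000. Pvalb was at 684 CPM over all adult members and at 720.2 CPM over the 341 with under 1 Sst UMI per 10,000. Within the members it thus did not simply fall as Sst rose. The cells near the limit thus had more RNA of somatostatin cell markers than the other members. High Elfn1 was also found in a cluster of 161 P4 members, at 438 CPM against 75.9 CPM in the other P4 members. Crhbp and Npas1 were among the leading genes of this P4 cluster (the clustering is described below). A cluster of 163 P1 members, led by Nr2f2 and Ndnf, shared 4 leading genes with this P4 cluster. These markers point both ways. Elfn1 and Crhbp are in the list of somatostatin markers used below, but Npas1, Nr2f2 and Ndnf are in that of interneurons from the caudal eminence. The group in the pups is described here by its rule.

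In the members as a whole, Elfn1 was at 200.5, 118, 50 and 19.8 CPM from P1 to the adult, and Grin3a at 302, 388, 167 and 43.8 CPM. A smaller share of somatostatin-type cells at later ages and less of these RNAs per cell cannot be told apart from these sums. RNA of other classes was present too. A list of 8 markers of excitatory neurons summed to 16.7% to 24.5% of its level in excitatory cells, with every marker detected at each age. This RNA was not particular to members, in which the list summed to 560.4 to 743 CPM. It summed to 369.8 to 683 CPM in Sst-high cells, 556 to 790.2 CPM in Adarb2 cells and 543 to 1712 CPM in microglia. In members, 7 microglial markers summed to 0.0971% to 0.695% of their level in microglia. The 12 somatostatin markers, including Sst, which the rule limits, summed to 713 to 869 CPM in members against 6594 to 21564 CPM in Sst-high cells. The 13 markers of interneurons from the caudal eminence, of which Sncg had no UMI at P1, P4 and P10, summed to 410.4 to 835 CPM in members against 5935 to 12698 CPM in Adarb2 cells. Markers of oligodendrocytes summed to 36.9, 82.3, 109 and 660.3 CPM in members, below the 1178 CPM of adult excitatory cells. Markers of astrocytes summed to 79.6 to 245 CPM, of vessels to 5.97 to 49.6 CPM, of dividing cells to 50.7 to 89.5 CPM, of the subpallium to 91.4 to 257 CPM, and hemoglobins to 20.4 to 141 CPM. The part of somatostatin-type cells and of this RNA of other classes in the results below was not tested, except where a value without such members is given.

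Of the cells passing the Gad limit, members made up 47.1% (44.8 to 49.5) in the P1 library, 37.9% (36.2 to 39.5) in P4, 25.3% (23.8 to 27.0) in P10 and 13.7% (12.4 to 15) in the adult library. These shares depended on the limit. With at least 10 UMIs of Gad1 and Gad2 per 10,000, a limit added after the data were seen, the shares were 35.9%, 33.6%, 33.8% and 23.9%. Gad1, a gene of the rule, was at 379 CPM in P1 members and at 4024 CPM in adult members. Why the shares depended on the limit was not tested. Adult members with exactly 1 Lhx6 UMI, 104 cells, had Pvalb at 450.4 CPM, and 292 members with more had 742 CPM. Cells with no Lhx6 UMI that met the other limits were 161 of the 1839 cells passing the Gad limit at P1 and 1273 of 2896 in the adult. The adult ones had a median of 4185 UMIs and Pvalb at 64.0 CPM. At P10 there were 771 of them, with Pvalb at 5.75 CPM and Syt2 at 5.95 CPM. The P10 members were at 8.41 and 44.6 CPM. The part of these cells in the shares was not tested.

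Pvalb was close to absent in the first days and high in the adult. In members it had 1 UMI at P1, which is 0.0558 CPM (0.00141 to 0.311), and 3 UMIs at P4, which is 0.262 CPM (0.0540 to 0.765). At P10 there were 138 UMIs, or 8.41 CPM (7.07 to 9.94), and in the adult 5073 UMIs, or 684 CPM (665 to 703). On the log2 scale the ratio of P10 over P4 was 5.01 (3.43 to 7.30), and that of adult over P10 was 6.35 (6.10 to 6.60). The P1 and P4 levels could not be separated, with a log2 ratio of 2.23 and an interval from -1.41 to 7.94. In the adult, Pvalb was at 16.2 CPM in Sst-high cells, 2.0 CPM in excitatory cells and 3.77 CPM in microglia, which should lack it, and the log2 ratio of members over Sst-high cells was 5.40 (5.16 to 5.65). Without the members that carried excitatory RNA, adult Pvalb was at 777 CPM and P10 Pvalb at 10.2 CPM.

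The share of members with at least 1 Pvalb UMI was 0.115% (0.00292 to 0.641) in the P1 library, 0.239% (0.0493 to 0.697) in P4, 10.9% (8.73 to 13.4) in P10 and 77.0% (72.6 to 81.1) in the adult library. With 3000 UMIs drawn from each cell, and 0, 9, 1 and 6 shallower members left out, these shares were 0%, for which 3 cells of 867 set a limit of 0.346%, then 0.0803%, 2.04% and 52.3%. Thinned excitatory cells gave 0.0500% at P10 and 0.850% in the adult, with full median depths of 21510 and 14462 UMIs, and thinned Sst-high cells gave 0% and 2.99%. The P10 share of members, 1.15% to 3.35% by its interval, was above the 0.00127% to 0.278% of excitatory cells. Adult members were far from uniform. Of 390 thinned adult members, 186 had no Pvalb UMI, 71 had 1, 86 had 2 to 4 and 47 had 5 or more. Over all adult members the level per cell had quartiles of 48.2, 306 and 897 CPM and reached 3356 CPM.

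**Figure D1:**
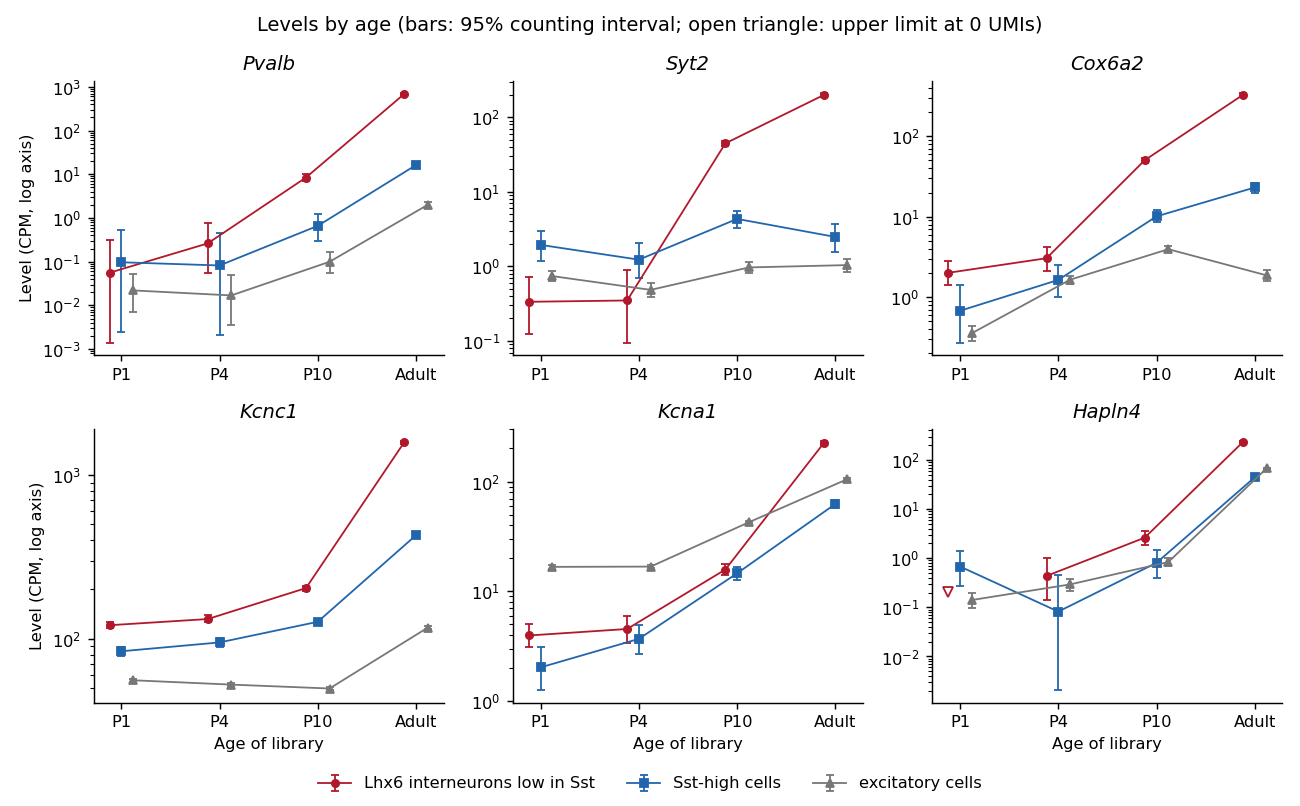
Levels in CPM on a log axis for Pvalb, Syt2, Cox6a2, Kcnc1, Kcna1 and Hapln4 in members (circles), Sst-high cells (squares) and excitatory cells (triangles), with 95% counting intervals and open triangles for the upper limit at 0 UMIs. Pvalb went from 8.41 to 684 CPM in members between P10 and the adult, and Syt2 was already at 44.6 CPM at P10.

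At P10 the 80 members with a Pvalb UMI could be set beside the 655 without one. Syt2 was at 113 CPM (99.1 to 127) in the first and 33.9 CPM (31.0 to 37.1) in the second. Cox6a2, a cytochrome c oxidase subunit of muscle and of parvalbumin cells, was at 115 and 40.2 CPM, and Vamp1 at 111 and 49.1 CPM. Dcx, the gene of the migration protein doublecortin, was at 580.3 CPM in cells with a Pvalb UMI and at 907 CPM in those without, and Sox11 at 72.3 and 129 CPM. Th, the gene of tyrosine hydroxylase, was at 0 CPM with an upper bound of 1.66 in the first and at 17.8 CPM in the second. Cells with a Pvalb UMI were also deeper, with a median of 29328 UMIs against 23028, and had less Slc17a7, a marker of excitatory neurons, at 99.6 against 178 CPM. These 2 sets come from 1 library and were split by a measured value, so the differences are descriptions.

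The genes of fast-spiking channels, 14 in all, were past 2-fold higher mainly in the step from P10 to the adult, and all but Cacna1a were highest in the adult. In the step from P1 to P4, 1 of the 13 with at least 20 UMIs in both libraries together was past 2-fold higher, against 8.59% of all 14138 genes counted that way, and none was past 2-fold lower, against 12.4% of all genes. From P4 to P10, 5 of 13 were past 2-fold higher, against 8.02% of all genes, and none lower, against 11.6%. From P10 to the adult, 13 of 14 were past 2-fold higher, against 10.5%, and none lower, against 13.5%. The median log2 ratio of the list was 0.13, 0.79 and 2.27 over the 3 steps, beside medians of -0.03, -0.15 and -0.07 over all genes. Over the whole span from P1, 13 of 14 were past 2-fold higher, against 19.7% of genes, and none lower, against 34.5%, with a median of 3.34.

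Kcnc1, which encodes the Kv3.1 channel that ends the fast spike, was at 121 CPM (116 to 127), 132 (126 to 139), 204 (197 to 211) and 1585 CPM (1556 to 1614) from the youngest to the oldest library. It was thus within 2-fold among the pups and stood apart in the adult, with a log2 ratio of adult over P10 of 2.96 (2.90 to 3.02). Kcnc2, its relative Kv3.2, was at 433, 232, 448 and 1962 CPM. Kcns3, which encodes the modifying subunit Kv9.3, was at 26.6, 16.8, 9.26 and 58.0 CPM and so reached its lowest level at P10.

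The Kv1 channels of axons and terminals were already higher at P10. Kcna1 was at 3.96, 4.54, 15.8 and 223 CPM, with log2 ratios of 1.8 (1.37 to 2.26) for P10 over P4 and 3.82 (3.63 to 4.01) for adult over P10. Excitatory cells had more Kcna1 than members among the pups, at 16.7, 16.8 and 42.6 CPM, and without the members that carried excitatory RNA it was at 0.380, 2.30, 13.3 and 240.2 CPM. Kcna2 was at 14.8, 25.1, 103 and 767 CPM, and Kcnab3, a beta subunit of Kv1 channels, at 7.09, 7.85, 26.3 and 218 CPM. Each of these 3 genes was past 2-fold higher in both of the later steps.

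Among sodium channels, Scn1a was at 148, 98.7, 161 and 729.7 CPM and Scn8a at 99.8, 108, 187 and 505 CPM. Scn4b, a beta subunit tied to resurgent sodium current, had 1 UMI at P1 and 0 at P4, then 0.731 CPM at P10 and 14.0 CPM in the adult, with a log2 ratio of adult over P10 of 4.26 (3.39 to 5.26). Excitatory cells had more of it, at 28.8 CPM. Hcn2, a channel opened by hyperpolarization, was at 11.2, 11.5, 15.7 and 50.7 CPM. Cacna1a, the P/Q-type calcium channel of release sites, was the exception, at 147, 109, 172 and 136 CPM.

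**Figure D2:**
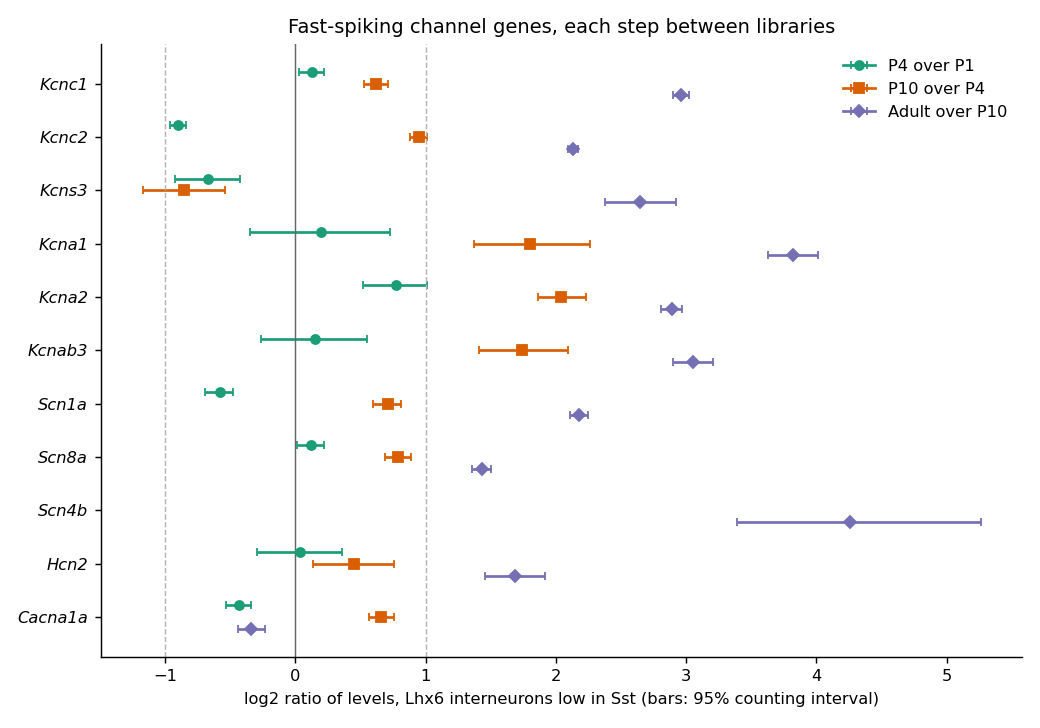
The log2 ratio of levels in members for P4 over P1 (circles), P10 over P4 (squares) and adult over P10 (diamonds) for 11 of the 14 fast-spiking channel genes, with 95% counting intervals, dashed lines at 2-fold and no point for Scn4b in the first 2 steps. In the last step 10 of the 11 lie past 2-fold, from 1.43 for Scn8a to 4.26 for Scn4b, and Cacna1a lies at -0.34.

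Sst-high cells of the same libraries also had more of these channels in the adult. From P10 to the adult, 11 of 14 were past 2-fold higher in them, against 7.38% of genes, with a median log2 ratio of 1.65, against the 2.27 of members. Between members and Sst-high cells, 1 of 13 channel genes was past 2-fold higher in members at P1, 3 at P4 and 1 at P10, against 4.05%, 4.89% and 3.31% of genes, and 2, 1 and 0 were lower, against 4.60%, 3.48% and 4.89%. The median log2 ratio between the groups was 0.24 at P1, 0.24 at P4 and 0.32 at P10. In the adult, 9 of 14 were, against 4.95% of genes, none was past 2-fold lower, against 5.90%, and the median was 1.21. Kcnab3 had a log2 ratio between the groups of 2.27 in the adult, Kcnc1 of 1.88 (1.83 to 1.94) and Kcna1 of 1.84 (1.70 to 1.98). Kcna1 had a ratio of 0.12 (-0.15 to 0.39) at P10, where 14.6 CPM in Sst-high cells stood beside 15.8 CPM in members. These ratios share libraries and were not tested.

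The genes of calcium handling and transmitter release were past 2-fold earlier than the channels. Of 11 genes, 8 were past 2-fold higher from P4 to P10, against 8.02% of all genes, with a median log2 ratio of 1.19. From P10 to the adult 3 were higher, against 10.5%, with a median of 0.26, and 2 were lower, 18.2% of the list beside 13.5% of all genes. From P1 to P4, 2 of the 9 counted, Cplx1 and Calb2, were higher, against 8.59% of all genes. In the adult, 4 of 11 were past 2-fold higher in members than in Sst-high cells, against 4.95% of all genes, and 2 lower, against 5.90%.

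Syt2, which encodes synaptotagmin 2, the fast calcium sensor of these terminals, was at 0.335 CPM (0.123 to 0.729), 0.349 (0.0951 to 0.894), 44.6 (41.4 to 48.0) and 198 CPM (188 to 208) from P1 to the adult. Its log2 ratio of P10 over P4 was 7.0 (5.64 to 8.88), and that of adult over P10 was 2.15 (2.02 to 2.28). Its step before P10 was thus the larger one, whereas the intervals of the 2 steps of Pvalb overlapped. The share of members with a Syt2 UMI at P4, P10 and in the adult was 0.319%, 29.8% (26.5 to 33.2) and 50.8% (45.7 to 55.8), and after thinning 0%, 7.90% and 25.4%. Thinned excitatory cells gave 0.40% at P10 and 0.450% in the adult. Sst-high cells had Syt2 at 4.33 CPM at P10 and 2.48 CPM in the adult, and the adult log2 ratio of members over them was 6.32 (5.72 to 7.0).

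Vamp1, a vesicle fusion protein of fast synapses, was at 11.4, 12.8, 57.5 and 499 CPM and Cplx1, a complexin that clamps and speeds release, at 79.8, 169, 806 and 1454 CPM. The general release genes Syt1 (1589, 1954, 4204 and 5027 CPM), Vamp2 (416, 634, 1445 and 1363 CPM) and Rab3a (321, 615, 1341 and 1895 CPM) were within 2-fold of their adult level by P10. Cplx2, the other complexin, was at 283, 373, 274 and 84.6 CPM, and the adult level was 44.3 CPM without the members that carried excitatory RNA. Its adult log2 ratio of members over Sst-high cells was -2.38 (-2.50 to -2.25). The calcium-binding proteins of other interneurons went their own ways, with Calb1 at 109, 149, 512 and 552 CPM and Calb2, calretinin, at 3.57, 12.2, 11.9 and 1.89 CPM.

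Genes of energy supply were past 2-fold higher mainly before P10. Of the 11 of 12 genes that could be counted, 4 passed 2-fold higher at P4 over P1, 7 at P10 over P4 and 2 at adult over P10, beside 8.59%, 8.02% and 10.5% of all genes. None was past 2-fold lower in any step, beside 12.4%, 11.6% and 13.5% of all genes. The 2 higher in the last step are 18.2% of the list, near the share of all genes. Cox6a2 was at 2.01 CPM (1.41 to 2.78), 3.05 (2.13 to 4.25), 50.4 (47.0 to 54.0) and 327 CPM (314 to 340.0), with log2 ratios of 4.04 (3.56 to 4.58) for P10 over P4 and 2.70 (2.58 to 2.81) for adult over P10. Its adult level was 23.1 CPM in Sst-high cells and 1.87 CPM in excitatory cells. The share of members with a Cox6a2 UMI was 2.31% at P4, 39.6% at P10 and 86.6% in the adult, and after thinning 0.963%, 9.95% and 50.8%, beside 0.150%, 0.650% and 0.80% of thinned excitatory cells.

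The widely used subunit Cox6a1 was at 325, 429.8, 510.0 and 544 CPM and did not pass 2-fold in any step. Ppargc1a, a coactivator of mitochondrial genes, was at 70.2, 162, 347 and 346 CPM and so was level after P10, and Esrra was at 29.2, 34.5, 70.8 and 90.4 CPM. Atp1b1, the beta subunit of the sodium pump, was at 735, 2251, 5611 and 8608 CPM and so had its larger steps before P10. Ckmt1, the mitochondrial creatine kinase, was at 4.74, 22.7, 117 and 133 CPM, and the aspartate-glutamate carrier Slc25a12 at 82.8 CPM at P1 and 212 CPM in the adult. Cox7a1 stayed at 1.56 to 3.77 CPM, and Cox8b was at 0 at the first 3 ages and at 0.270 CPM in the adult. In the adult, 1 of the 11 was past 2-fold lower in members than in Sst-high cells, against 5.90% of all genes, and 5 were higher, against 4.95%, among them Esrrg with a log2 ratio of 2.50 (2.31 to 2.71) and Ppargc1a with 1.35 (1.25 to 1.45).

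**Figure D3:**
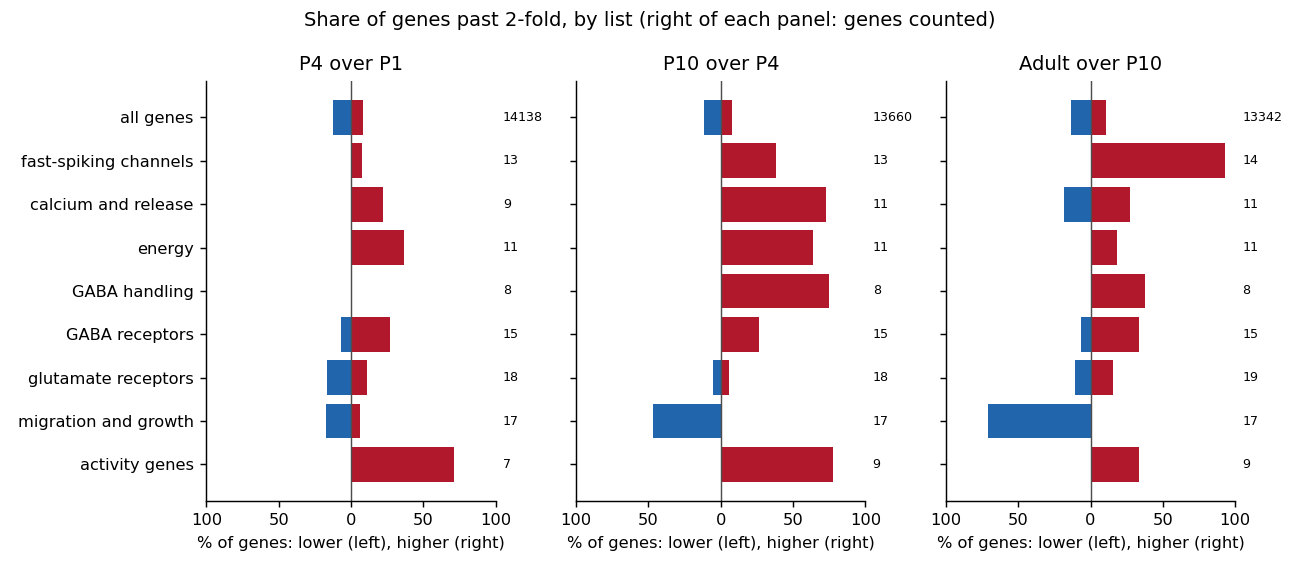
The percentage of genes past 2-fold higher (bars to the right) and lower (bars to the left) in members for 8 gene lists and for all genes, over the 3 steps between ages, with the number of genes counted beside each bar. Fast-spiking channels have 38.5% higher in the second step and 92.9% in the last, while calcium and release genes have 72.7% and 27.3%.

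The matrix of the perineuronal net differed between ages in its components. Of its 9 genes, 3 were past 2-fold higher (Acan, Hapln1 and Hapln4) and 1 lower (Vcan) among the 8 counted from P4 to P10, against 8.02% and 11.6% of all genes, so that the 1 lower is near the share of all genes. From P10 to the adult 3 were higher (Acan, Bcan and Hapln4) and 3 lower (Ncan, Vcan and Has3), against 10.5% and 13.5%. Hapln4, a link protein of mature nets, had no UMI at P1, which allows up to 0.206 CPM, then 0.436 CPM (0.142 to 1.02), 2.62 (1.90 to 3.53) and 232 CPM (221 to 243) at the later ages. The log2 ratio of adult over P10 for Hapln4 was 6.47 (6.03 to 6.94). Hapln4 was not restricted to members, with 44.4 CPM in Sst-high cells, 67.3 CPM in excitatory cells and 24.8 CPM in microglia of the adult.

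Hapln1, the link protein of younger matrix, was at 0.893, 22.3, 107 and 54.2 CPM, highest at P10, and Adarb2 cells had more of it, at 849.5 CPM at P10. A cluster of 40 P10 members, the chandelier-like cells described below, had 1133 UMIs of Hapln1 at 1519 CPM, and the other P10 members were at 40.2 CPM, below the adult level. Acan, which encodes aggrecan, the core proteoglycan of the net, was low throughout at 0.502, 0.524, 3.29 and 10.8 CPM, but Sst-high cells had 0.113 CPM in the adult, a log2 ratio of 6.58 (4.06 to 11.90). Vcan, versican of the juvenile matrix, was at 268, 203, 29.7 and 4.72 CPM and Ncan, neurocan, at 229, 187, 106 and 35.2 CPM. Bcan was at 12.8, 33.9, 38.8 and 89.8 CPM and Tnr at 98.8, 93.9, 109 and 172 CPM. The hyaluronan synthases were near the floor, with Has2 at 0 to 0.349 CPM and Has3 at 1.21 to 4.80 CPM.

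Several pairs of related genes were compared by the share of the pair's UMIs that came from the partner set down as the late one. Cox6a2 took 0.615%, 0.706%, 8.99% and 37.5% (36.3 to 38.7) of the Cox6a pair, against 6.12% in adult Sst-high cells and 0.566% in adult excitatory cells. Syt2 took 0.0211%, 0.0179%, 1.05% and 3.79% of the pair with Syt1. Vamp1 took 2.67%, 1.98%, 3.82% and 26.8% (26.1 to 27.5) of the pair with Vamp2, so that most of this exchange came after P10. Cplx1 took 22.0%, 31.2%, 74.7% and 94.5% (94.1 to 94.9) of the complexin pair, with 56.5% in adult Sst-high cells and 29.7% in adult excitatory cells. Acan took 0.187%, 0.258%, 9.98% and 69.6% (60.3 to 77.8) of the pair with Vcan, against 2.04% (0.0517 to 10.9) in adult Sst-high cells.

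Slc12a5, the potassium-chloride exporter that makes GABA hyperpolarizing, took 49.9% (47.7 to 52.0), 70.9%, 89.6% and 90.6% (89.7 to 91.5) of the pair with the importer Slc12a2. The share was near its adult value at P10, although the level of Slc12a5 itself was past 2-fold higher in the adult than at P10. Sst-high cells had shares of 67.7%, 81.1%, 88.0% and 88.7%. Grin2a took 5.21%, 4.52%, 8.48% and 20% of the pair with Grin2b, below the 29.4% of adult Sst-high cells and the 31.7% of adult excitatory cells. Grin2c took 0.246%, 0.101%, 0.265% and 6.28% of the pair with Grin2d, against 3.18% in adult Sst-high cells and 80.3% in adult excitatory cells. Kcnc1 took 21.9%, 36.3%, 31.3% and 44.7% of the pair with Kcnc2, and Gria4 took 33.3%, 25.5%, 24.8% and 32.1% of the pair with Gria1. Hapln4 had none of the pair's 16 UMIs at P1, then 1.92%, 2.38% and 81.0% of the pair with Hapln1.

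**Figure D4:**
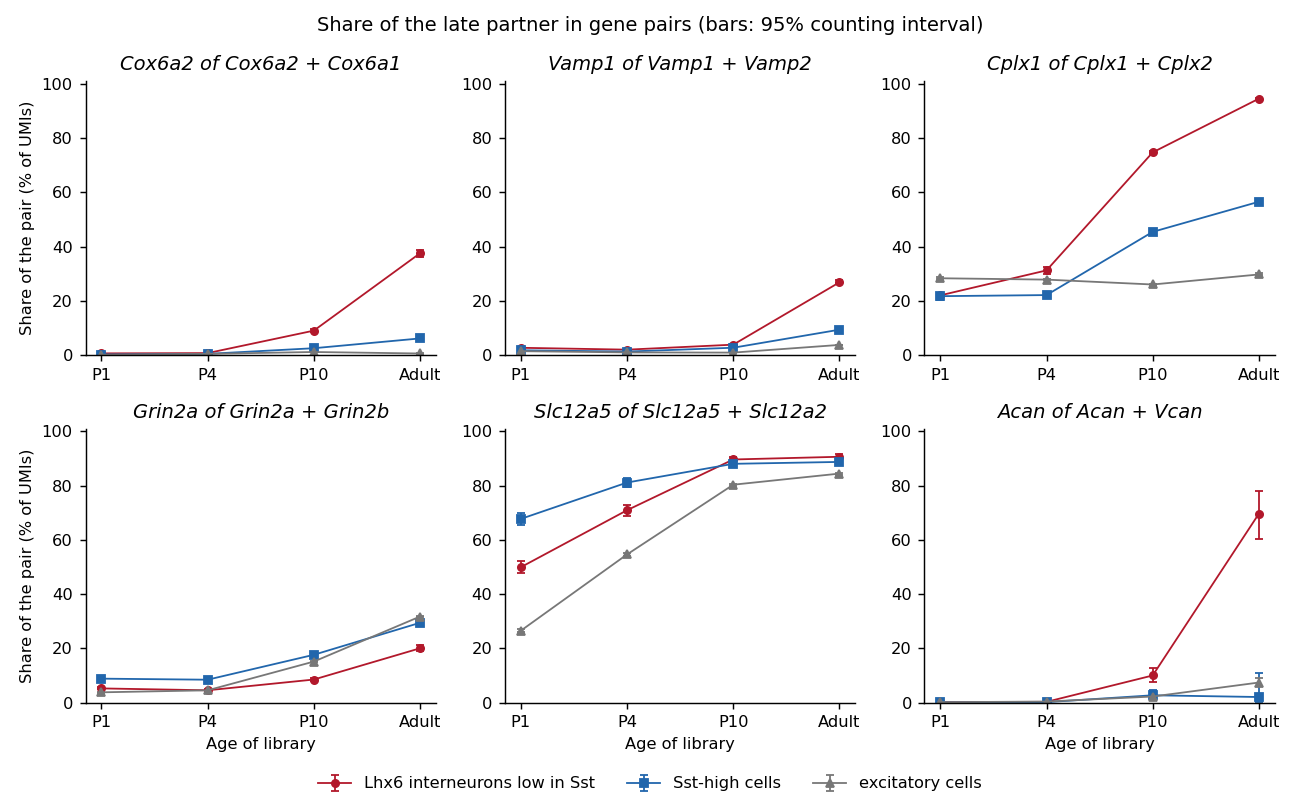
The share of a pair's UMIs taken by the late partner (vertical axis, percent) at each age in members (circles), Sst-high cells (squares) and excitatory cells (triangles) for 6 gene pairs, with 95% counting intervals. In members Slc12a5 is at 89.6% by P10, while Vamp1 is at 3.82% at P10 and 26.8% in the adult.

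Genes that make, load and clear GABA were past 2-fold higher mainly from P4 to P10, in 6 of 8, with 3 of 8 from P10 to the adult. None was past 2-fold lower in these 2 steps, beside 11.6% and 13.5% of all genes. The counts of higher genes include Gad1 and Gad2, which the rule used, and without them they were 4 of 6 and 2 of 6, beside 8.02% and 10.5% of all genes. Gad1 was at 379, 573, 1371 and 4024 CPM and Gad2 at 431, 276, 946 and 1556 CPM. Slc32a1, the vesicular GABA transporter, was at 119, 149, 468 and 763 CPM, and Abat, the enzyme that breaks GABA down, at 44.5, 71.6, 324 and 485 CPM. Slc12a5 was at 59.5, 113, 241 and 516 CPM.

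Of 15 genes of GABA receptors, 4 were past 2-fold higher in the first step, 4 in the second and 5 in the last, beside 8.59%, 8.02% and 10.5% of all genes, and 1, 0 and 1 were lower, beside 12.4%, 11.6% and 13.5%. Gabrd, the delta subunit of receptors outside synapses, was at 1.06, 5.67, 20.4 and 46.6 CPM, Gabra4 at 12.9, 42.2, 128 and 261 CPM and Gabrg1 at 3.79, 9.60, 8.65 and 21.4 CPM.

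The 19 genes of glutamate receptors and their partners had medians of 0.02, 0.28 and 0.26 on the log2 scale over the 3 steps, with 3 higher and 2 lower from P10 to the adult. These are 15.8% and 10.5% of the list, near the 10.5% and 13.5% of all genes. Nptx1, a pentraxin that gathers AMPA receptors, was at 5.80, 14.3, 23.8 and 78.2 CPM and Grin2c at 0.167, 0.175, 0.610 and 5.39 CPM. Grik2, a kainate receptor, was at 703, 132, 83.2 and 125 CPM, with its large difference between the P1 library and the others.

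Among 13 genes of synaptic partners, 1 was past 2-fold higher and 3 lower from P10 to the adult, which is 7.69% and 23.1% of the list beside 10.5% and 13.5% of all genes. Lgi2, a secreted protein of synapses, was at 89.8, 202, 468 and 799 CPM and Cntnap4, an adhesion protein of interneuron terminals, at 74.1, 49.4, 82.8 and 200 CPM. Nrxn3 was at 1914 CPM at P1 and at 553 to 697 CPM later. Erbb4, the neuregulin receptor through which these cells gain excitatory input, falls outside the rule for named genes and was chosen after its values were seen. Erbb4 was at 1929, 1287, 928 and 1841 CPM and in each age above Sst-high cells, with an adult log2 ratio of 2.36 (2.31 to 2.42).

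The genes of migration and growth were lower with age, 15 of 17 by more than 2-fold in the adult than at P1, against 34.5% of all genes. Of the 17, 3 were past 2-fold lower in the first step, 8 in the second and 12 in the last, against 12.4%, 11.6% and 13.5% of all genes, and 1 was past 2-fold higher, in the first, which is 5.88% of the list beside 8.59% of all genes. Sox11 was at 2548, 1012, 121 and 14.6 CPM, Dcx at 3494, 3117, 863 and 45.2 CPM and Cd24a at 686, 833, 201 and 5.26 CPM. Cxcr4, the chemokine receptor that guides migrating interneurons, was at 56.9, 19.4, 2.07 and 0.539 CPM. Sst-high cells had 11 of 17 past 2-fold lower from P10 to the adult, against 10.1% of all genes in them.

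Of the 11 cell death genes counted, 5 were past 2-fold lower and 1 higher from P10 to the adult, beside 13.5% and 10.5% of all genes, so that the 1 higher is near the share of all genes. Apaf1, which activates caspases, was at 79.1, 68.2, 37.7 and 15.4 CPM. Bax was at 95.5, 117, 94.6 and 42.1 CPM, and Mcl1, which opposes death, at 114, 102, 59.2 and 48.0 CPM.

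Of 13 transcription factors of the lineage, 3 were past 2-fold lower from P4 to P10, against 11.6% of all genes, none passed 2-fold in the other 2 steps, and 9 were lower in the adult than at P1, against 34.5%. The counts include Lhx6, and without it they were 3 of 12 and 8 of 12. Maf was at 1176, 847, 288 and 199 CPM, Zeb2 at 1374, 828, 462 and 263 CPM, Dlx1 at 429, 263, 119 and 84.2 CPM and Dlx2 at 208, 121, 62.1 and 39.9 CPM. Lhx6, which the rule requires, was at 704, 596, 299.8 and 173 CPM.

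Genes induced by activity were mostly past 2-fold higher in the P4 library than in the P1 library. In that step age and the other differences of the P1 library cannot be told apart. Of the 7 counted, 5 were past 2-fold higher in the first step, then 7 of 9 in the second and 3 of 9 in the last, beside 8.59%, 8.02% and 10.5% of all genes. Egr1 was at 2.51, 10.7, 42.5 and 96.5 CPM, Arc at 0.167, 1.05, 2.50 and 16.7 CPM, Fosb at 0.279, 0.349, 2.62 and 5.80 CPM and Egr3 at 1.79, 10.7, 22.5 and 36.1 CPM. Excitatory cells had more of the first pair in the adult, with Egr1 at 539 CPM and Arc at 91.2 CPM, and adult microglia had 202 and 38.9 CPM. The part that RNA of excitatory cells had in the members' values was not tested.

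Among genes of parvalbumin subtypes, Tac1, the precursor of substance P, was at 37.8 CPM (35.0 to 40.7), 113 (107 to 119.5), 506 (496 to 517) and 799.5 CPM (779 to 820.1). Tac1 summed over members was above Sst-high cells at every age, with log2 ratios of 2.68, 1.77, 2.07 and 3.08, including P1 and P4, where Pvalb was close to 0. In these 2 libraries 1 cluster carried most of the Tac1 UMIs. At P1 it held 89 cells, at 269 CPM against 7.94 CPM in the other members. At P4 it held 190 cells, at 536 CPM against 32.1 CPM. With at least 10 UMIs of Gad1 and Gad2 per 10,000, Tac1 was at 74.9 CPM at P1 and 209 CPM at P4. Pthlh, a parathyroid hormone-like peptide, was at 0.502, 1.22, 4.02 and 39.4 CPM, the first from 9 UMIs in 1 cell. It was lower than in Sst-high cells at P1, with a log2 ratio of -4.59 (-5.75 to -3.62), and higher in the adult, with 3.20 (2.71 to 3.73). Th was at 0.112, 0.611, 15.4 and 33.2 CPM. A single cluster carried most of its UMIs at P10, with 89.4 CPM against 3.94 CPM in the other members, and in the adult, with 497 against 2.30 CPM. Sema3e was at 3.57, 11.3, 29.0 and 48.5 CPM.

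Over all genes with at least 100 UMIs in the pair of libraries, the 8 with the largest ratios of P10 over P4 in members were Syt2, Tcap, Lynx1, Lgals1, Pvalb, Gpr3, Lgi3 and Th. Tcap, known as a protein of the muscle sarcomere, was at 0, 0.175, 13.5 and 29.5 CPM, with 2.82 CPM in adult Sst-high cells. Lynx1, a brake on nicotinic receptors, was at 1.84, 4.36, 201 and 279 CPM, but also at 136 CPM in Sst-high and 121 CPM in excitatory adult cells. Lgals1, a galectin, was at 89.6 CPM in P10 members and 189 CPM in P10 Sst-high cells. Gpr3 was at 8.41 CPM and Lgi3 at 44.9 CPM at P10. Those with the lowest ratios were Npas1, H19, Sinhcaf, Arhgap28, Draxin, Prokr2, Phf21b and Ezh2, which included Draxin, a guidance protein, at 104, 96.7, 9.26 and 0 CPM, and Ezh2, a chromatin silencer of dividing and young cells, at 186, 67.6, 6.83 and 2.83 CPM.

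From P10 to the adult the 8 largest ratios belonged to Ptgds, Ermn, Mal, Mobp, Hapln4, Pvalb, Cldn11 and Sgpp2. Ptgds, Ermn, Mal, Mobp and Cldn11 are known from oligodendrocytes, and each was higher in adult excitatory cells and in adult microglia than in members. Mal, for example, was at 52.8 CPM in members, 95.7 CPM in excitatory cells and 159 CPM in microglia. Sgpp2, a phosphatase of sphingosine phosphate, was at 15.4 CPM in members and 10 CPM in excitatory cells. Of the 8, Pvalb alone was more than 10 times as high in members as in each of these comparison groups, by the levels given above. The lowest ratios belonged to Eln, Mki67, Syndig1l, Tubb2b, Cd24a, Vit, Marcksl1 and Stk32b. Tubb2b, a tubulin of growing neurons, was at 1838 CPM at P10 and 42.5 CPM in the adult, and Marcksl1 at 1459 and 44.1 CPM.

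Set against adult Sst-high cells, the 8 genes with the highest ratio in adult members were Syt2, Mybpc1, Pvalb, Adamts15, Ostn, Akr1c18, Pde5a and Prss23. Mybpc1, a myosin-binding protein of muscle, was at 41.9 CPM in members at P10 and in the adult and at 0.676 CPM in adult Sst-high cells, a log2 ratio of 5.96. Pde5a, a cyclic GMP phosphodiesterase, was at 47.9, 36.1, 31.5 and 115 CPM, against 6.08 CPM in adult Sst-high cells, but adult Adarb2 cells had 122 CPM of Pde5a and 22.6 CPM of Mybpc1. Adamts15, a protease that cleaves matrix proteoglycans, was at 0.893, 3.93, 21.6 and 24.3 CPM. Thus Mybpc1 and Adamts15 were near their adult level at P10, while Ostn went from 4.21 to 21.4 CPM and Prss23 from 17.7 to 106 CPM. The lowest ratios belonged to Chodl, Ighg2b, Sst, Npas1, Pdyn, Nr2f2, Plpp4 and Calb2. Sst is fixed by the rule, and Ighg2b, an immunoglobulin gene, was at 177 CPM in adult Sst-high cells, 0.674 CPM in members and 17.7 CPM in excitatory cells.

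The members of each age were clustered on their own, which gave 6, 9, 8 and 9 clusters from P1 to the adult. Sizes were not compared between ages. In every age 1 cluster had genes of excitatory neurons among its leading genes and held cells with 1.41 to 2.24 times the median UMIs of members. At P1 this cluster, of 114 cells, also had genes of astrocytes among its leading genes. In the adult it held 44 cells, with Slc17a7 at 1453 CPM, and had Pvalb at 314 CPM (282 to 349). Another adult cluster, of 29 cells, was led by oligodendrocyte genes, and one of 16 cells by microglial genes. Among the pups, microglial genes were among the leading genes of a P1 cluster of 285 cells and of a P10 cluster of 105 cells that also had Th and Nr4a2. Genes of astrocytes and of the oligodendrocyte lineage led a P4 cluster of 39 cells, genes of the oligodendrocyte lineage a P10 cluster of 20 and genes of astrocytes a P10 cluster of 29. Vessel genes led a P4 cluster of 24 cells. They were also among the leading genes of a P10 cluster of 167 cells with Col25a1 and Moxd1. A P4 cluster of 251 cells was led by genes of dividing cells, Mki67 among them. In the larger of these clusters such genes were at low levels. C1qb was at 19.3 CPM in the P1 cluster of 285 cells and 585 CPM in the adult cluster of 16. C1qc was at 75.4 CPM in the P10 cluster of 105 and 655 CPM in that adult cluster. Cldn5 was at 39.7 CPM in the P10 cluster of 167 cells and 504 CPM in the P4 cluster of 24. Mki67 was at 50.2 CPM in the P4 cluster of 251 cells and 625 CPM in P4 microglia. These clusters were left unnamed.

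Pvalb differed among the other adult clusters, whose leading genes recurred from P10 in several cases. Pvalb was at 1079 CPM (1029 to 1131) in 83 cells with Reln, Klhl14 and Eya4 among their leading genes, where Syt2 was at 400.0 CPM. Pvalb was at 1048 CPM (993 to 1106) in 65 cells led by Rrp8 and Sod3, at 585 CPM (542 to 631) in 66 cells with Eya1, Gpr83 and Mme, at 398 CPM (359.9 to 439) in 53 cells with Calb1, Col25a1 and Moxd1, and at 259 CPM (215 to 310.2) in 28 cells with Th and Nr4a2. Syt2 was at 264, 191, 45.1 and 75.7 CPM in the last 4, with the final pair in the other order. Tac1 did not follow the order of Pvalb, at 349.9 CPM in the cluster highest in Pvalb and at 1556 CPM in the cluster with Eya1. Cells of 1 library are no replicates, and no difference between clusters was tested.

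The smallest adult cluster, 12 cells, had a UMI of all 5 markers of chandelier cells, which contact axon initial segments. Some clusters led by other genes did so too. The cluster of 12 cells had C1ql1 at 584 CPM (469 to 719.8), Pthlh at 598 CPM (481 to 734) and Unc5b at 259 CPM (184 to 354). C1ql1 and Pthlh were among its 10 leading genes, but so were markers of other interneurons. Vip, of the caudal eminence list, was at 1235 CPM against 9.35 CPM in the other adult members. Elfn1, of the somatostatin list, was at 272 against 14.6 CPM. In these chandelier-like cells Pvalb was at 126 CPM (76.0 to 197), from 19 UMIs, and Syt2 at 0 with an upper bound of 24.5 CPM. At P10 a chandelier-like cluster of 40 cells, with C1ql1 at 764 CPM and Unc5b at 166 CPM, shared C1ql1, Nyap2 and Kit with it among the leading genes. The leading genes of this P10 cluster also held Lamp5, a marker in the list of the caudal eminence, at 189 CPM against 7.92 CPM in the other P10 members. The P10 cluster had no UMI of Pvalb or Syt2, which allows up to 4.94 CPM for each, while Kcnc1 was at 409 CPM (364 to 457), above the 204 CPM of all P10 members. No P1 or P4 cluster had 2 of these markers among its 10 leading genes. A P4 cluster of 82 cells did share Hapln1 and Rgs10 with the P10 cluster among its leading genes and had a UMI of all 5 markers. Hapln1 was at 388 CPM in it against 6.64 CPM in the other P4 members.

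**Figure D5:**
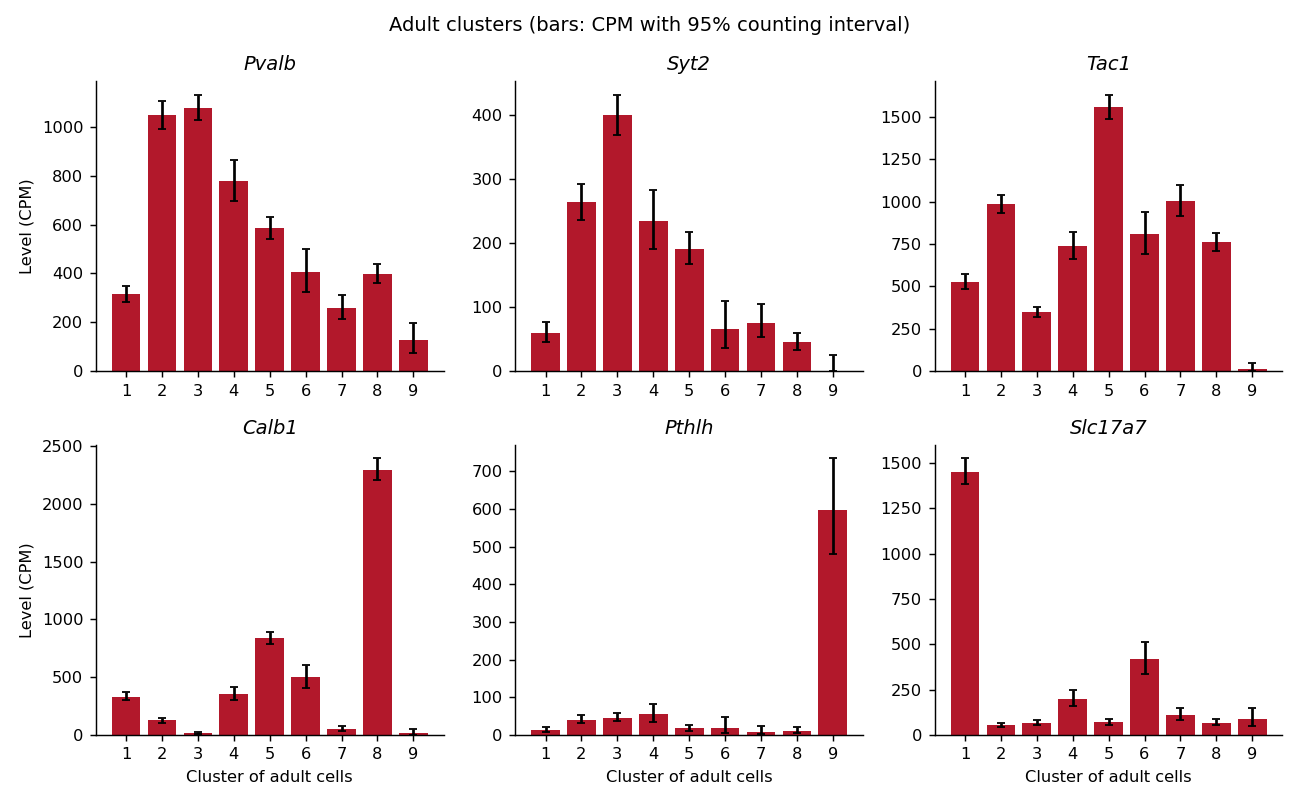
Levels in CPM of Pvalb, Syt2, Tac1, Calb1, Pthlh and Slc17a7 (bars, with 95% counting intervals) in the 9 clusters of adult members. Pvalb is highest in clusters 2 and 3, at 1048 and 1079 CPM, Slc17a7 in cluster 1, at 1453 CPM, and Pthlh in cluster 9, at 598 CPM.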

How the data were processed

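Single cells of the PFC were profiled at 4 ages with 1 BD Rhapsody library each, and cells were not assigned to mice. Per the file headers, the authors made the deposited counts of UMIs per cell and gene with the BD Rhapsody WTA pipeline, version 1.11 for P1 and 1.8 for the other ages, on GRCm38 with GENCODE vM19. The study's methods name version 1.11 for all. The authors' limits (at least 1000 UMIs, at least 1000 genes, at most 15% mitochondrial UMIs) were applied, their doublet and manual removals were not repeated, and cells marked by Scrublet were kept.

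The members, gene lists and tests were chosen with earlier results of these data known. Counts were summed per age and cell group. Intervals are exact Poisson (CPM), exact conditional binomial (ratios) and Clopper-Pearson (shares) at 95%. A gene was counted in a comparison at 20 or more UMIs in its libraries together, and a group at 0 was set to a floor of 3 UMIs. Named genes were those of the rule, of the channel, release, energy and net lists, the 4 of every other list with the largest adult over P1 ratio, the pair partners, and the 8 highest and lowest of 3 comparisons with at least 100 UMIs. Some genes that count in the lists are not reported here by name. Clusters used 1500 variable genes, 20 components, 15 neighbours and a resolution of 0.5. The computation was tested on simulated data and run with Python 3.11.15, numpy 2.4.6, scipy 1.17.1 and scanpy 1.11.5.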

Additional observations from a re-analysis of the deposited data

Results flagged for a closer look

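A few genes had ratios of opposite sign in members and in Sst-high cells, each past 2-fold in both. These differences were not tested. Pthlh had a log2 ratio of P4 over P1 of 1.28 (-0.03 to 2.67) in members and -1.08 in Sst-high cells. The ratio in members rests on 9 UMIs in 1 cell at P1 and 14 UMIs at P4, and its interval includes 0. Th had a log2 ratio of adult over P10 of 1.10 in members and -1.34 in Sst-high cells. Outside the single cluster of each age that carried most of the Th UMIs, members were at 3.94 CPM at P10 and 2.30 CPM in the adult. Those clusters were picked for their Th, so a low level outside them follows from the choice. The other cases were hemoglobin genes, which mark red blood cells. Hbb-bt for P4 over P1 was at 2.0 in members and -1.73 in Sst-high cells. For P10 over P4, Hba-a1 was at -1.75 and 1.36, Hbb-bs at -1.71 and 1.75, and Hbb-bt at -2.06 and 1.91. For adult over P10, Hba-a1 was at -1.05 and 1.42 and Hba-a2 at -1.41 and 1.89.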

How the results depend on the processing

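No paired analysis was possible because each age was 1 library. The alternatives were to leave out cells marked by Scrublet, a stricter cell filter (2000 UMIs, 1500 genes, 10% mitochondrial), Sst under 1 per 10,000, at least 2 Lhx6 UMIs, members with excitatory RNA left out, Gad1 and Gad2 of at least 10 per 10,000 (chosen after seeing the data), all UMIs as the denominator, cells weighted equally, cells thinned to 3000 UMIs, a minimum of 100 UMIs per gene, no minimum, and ratios centred on the median of all genes. The log2 ratios of Pvalb and the channel medians kept their sign under those run for them.

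The log2 ratio of Pvalb for adult over P10 was 6.79 with the stricter filter and 6.62 with Sst under 1, and for adult members over Sst-high cells it was 5.97 with 2 Lhx6 UMIs. The channel median for adult over P1 was 3.17 with the stricter filter and also with the Gad limit of 10, 3.00 in thinned cells and 3.71 when centred, and for adult over P10 it was 2.17 in thinned cells. Genes past 2-fold for P4 over P1, 2968 as reported, were 1917 in thinned cells and 1645 with 100 UMIs. For P10 over P4 they were 1769 with 100 UMIs and 4118 with no minimum, and for adult over P10, 2105 with 100 UMIs. For P10 over P4 the share of these genes that was higher was 40.9% as reported and 54.5% when centred, since the median of all genes was -0.15. For adult over P10 it was 43.7% as reported and 53.0% with no minimum.

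The share of members among GABAergic cells, from P1 to the adult, was 39.2%, 30.3%, 20.9% and 11.8% with Sst under 1, 38.9%, 25%, 19.7% and 10.5% without excitatory RNA, 35.9%, 33.6%, 33.8% and 23.9% with the Gad limit of 10, and 37.9%, 28.8%, 13.4% and 5.63% with the rule on thinned cells. With 2 Lhx6 UMIs it was 35.2% at P4, 23.7% at P10 and 10.1% in the adult. The causes of these differences were not tested. Members at P4 were the shallowest, which lowers their shares of cells with a UMI before thinning.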
